A study of Homo sapiens with 9 samples.

Results

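The RUNX family and its core-binding-factor partners were described at 7 genes: RUNX1, RUNX2, RUNX3, CBFB, RUNX1T1, CBFA2T2 and CBFA2T3, of 20037 protein-coding genes in the RefSeq gene table for GRCh38.p14. The genes were taken from a list of the family, though with earlier results of these data known. For each gene a window was formed from its annotated body and 50 kb to each side, and every deposited peak overlapping it by 1 bp or more was collected. The cells were RPMI-8402, a human line of T-cell acute lymphoblastic leukaemia. The title of the series pairs NKX2-1 with RUNX1, and its design text asks where NKX2-1 binds. ChIP-seq with an antibody (ab76013) against the homeodomain factor NKX2-1, also called TTF1, had been run on 4 knockout (KO) clones, C12, C15, S04 and S36, and on 4 wild-type (WT) clones, WT10, WT13, WT28 and WT30. The genotype field of the C and S clones reads NKX2-1, and it is the design text that calls them knockouts; the labels do not say which bases were altered. A further, single library used an antibody against H3K27ac, acetylated lysine 27 of histone H3, which marks promoters and enhancers in use. The genotype given for it is likewise NKX2-1, without a clone, and it was not replicated. All 9 samples came from this line, grown in RPMI-1640 medium with serum, and each clone contributed 1 library, so p-values reflect variation among clones and any technical variation together.

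RUNX1, RUNX2 and RUNX3 encode the DNA-binding subunits of core-binding factor, and CBFB encodes the shared partner that does not contact DNA itself but stabilises the complex on it. RUNX1 is required for blood stem cell formation and for T-cell development, RUNX2 for bone formation, and RUNX3 for cytotoxic T-cell differentiation. Each RUNX gene is known to be transcribed from a distal and a proximal promoter. RUNX1T1 (ETO), CBFA2T2 (MTGR1) and CBFA2T3 (ETO2) form a family of corepressors that bind no specific DNA sequence themselves and act through DNA-binding factors. RUNX1T1 is known as a fusion partner of RUNX1 in acute myeloid leukaemia, and CBFA2T3 as a member of the TAL1 and GATA complexes of blood cells.

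Promoter sequences were available for 5 of the 7 genes, as 7 RefSeq entries (GRCh38.p14) that each cover 250 bases before and 50 bases after a start. The 3 shown are the RUNX1 entry, the one of the 7 windows that an H3K27ac peak overlapped, and the distal entries of RUNX2 and RUNX3, which none overlapped. They are written 5′ to 3′ on the strand of the gene, and capitals mark TGTGGT or its other strand ACCACA, the core of the site that RUNX proteins bind.
RUNX1 proximal, chr21:34888650-34888949, minus strand: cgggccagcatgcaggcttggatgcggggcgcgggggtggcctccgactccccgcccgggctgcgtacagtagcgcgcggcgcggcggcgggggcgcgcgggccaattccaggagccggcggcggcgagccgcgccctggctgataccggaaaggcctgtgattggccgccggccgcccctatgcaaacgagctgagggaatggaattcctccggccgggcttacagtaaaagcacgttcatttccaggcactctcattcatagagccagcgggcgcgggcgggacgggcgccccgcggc
RUNX2 distal, chr6:45328080-45328379, plus strand: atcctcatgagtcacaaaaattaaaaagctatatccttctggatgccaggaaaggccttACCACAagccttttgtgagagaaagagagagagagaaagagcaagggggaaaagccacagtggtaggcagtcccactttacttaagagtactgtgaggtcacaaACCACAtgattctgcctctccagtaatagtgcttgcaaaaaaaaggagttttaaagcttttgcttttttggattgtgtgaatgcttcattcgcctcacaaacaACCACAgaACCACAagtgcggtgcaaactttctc
RUNX3 distal, chr1:24964961-24965260, minus strand: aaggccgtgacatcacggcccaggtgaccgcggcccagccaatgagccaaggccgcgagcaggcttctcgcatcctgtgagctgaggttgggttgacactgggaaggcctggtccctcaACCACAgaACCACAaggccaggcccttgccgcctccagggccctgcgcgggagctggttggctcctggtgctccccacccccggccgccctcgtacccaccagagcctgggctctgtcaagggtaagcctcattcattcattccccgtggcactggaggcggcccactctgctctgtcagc
The core occurred 4 times in the RUNX2 distal window and 2 times in the RUNX3 distal window. It was not found in the RUNX1 window or in the other 4 entries. Among 35116 promoter windows of the same length, 13.1% held the core at least 1 time, 1.31% held it 2 or more times and 0.0142% held it 4 or more times.

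The RUNX2 and RUNX3 distal windows shared an unbroken run of 18 bases with the core 2 times, shown here because it is the longest run common to any pair of the 7 entries.
Shared run, RUNX2 and RUNX3 distal windows: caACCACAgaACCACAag
Counting the start as position 1, it began at position 15 in RUNX2, past the start, and at position -133 in RUNX3, before it. Of the 35116 promoter windows only these 2 held it. Around the CAAG core that NKX2-1 binds, CTCAAG (or CTTGAG) and TCAAGT (or ACTTGA) were searched on both strands, and the 2 strings overlap each other. The proximal RUNX2 window (chromosome 6, 45422025 to 45422324) held both, and the proximal RUNX3 window (chromosome 1, 24930227 to 24930526) held TCAAGT or its other strand alone. Among all promoter windows 12.4% held the first string and 8.81% the second. These matches describe letters and are not evidence of binding.

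No NKX2-1 antibody peak was called at any of the 7 genes in either genotype. The KO libraries C12, C15, S04 and S36 had 0, 0, 0 and 0 peaks in the 7 windows together, and the WT libraries WT10, WT13, WT28 and WT30 had 0, 0, 0 and 0. The groups were therefore identical, and the exact permutation test of their difference (two-sided, 70 assignments) gave p = 1, with no spread for it to work on. Such a call is uncommon at any gene. A peak in 1 or more KO libraries was present in 3.39% of all protein-coding gene windows, a peak in 1 or more WT libraries in 3.38%, and a peak in any of the 8 libraries in 5.61%, while 0.304% had one in all 8. In windows within 20% of the length of the RUNX1 window the share with a call in any library was 8.03% of 847. With such shares, 0 of 7 windows lies near the background.

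By library, the share of all gene windows with a call was 1.13% for C12, 0.938% for C15, 0.843% for S04 and 3.19% for S36 among KO clones. It was 2.98% for WT10, 0.599% for WT13, 1.44% for WT28 and 0.998% for WT30 among WT clones. On the assembled autosomes and sex chromosomes the KO libraries held 810 to 934 peaks, the WT libraries 742 to 1144, and the H3K27ac library 9857. In Fisher's exact test over the libraries, 0 of 1124 gene windows with a call (0%) and 0 of 1643 merged regions (0%) passed an adjusted p of 0.05, with 24 and 19 at an unadjusted p under 0.05. The smallest p that 4 against 4 libraries allow is 0.0286, and the smallest adjusted p was 1 in both, so even a complete split between KO and WT libraries could not pass here and the counts of 0 say nothing about whether the genotypes differ. None of these windows or regions belonged to the 7 genes. Read numbers are unknown, so a gene without a peak is one where none was called at the depth of that library.

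RUNX2 carried the single NKX2-1 peak of the family, in the authors' combined list, which the labels name for all 8 antibody libraries. The peak lay within the gene on chromosome 6, 45488973 to 45489172, 160643 bp from the distal start, 66698 bp from the proximal start and 61910 bp from the other end of the gene. Its deposited enrichment was 2.58-fold, the lowest of the 209 peaks in the list, whose median was 4.24-fold. Its −log10 q of 2.98 ranked 207th, against a list median of 9.5, and its width of 200 bp was the smallest in the list. None of the KO libraries and none of the WT libraries had a call there, which it had in common with 83 peaks of the list, itself included. A combined-list peak was present in 1.68% of all gene windows and in 2.6% of those of like length to RUNX1. The list described as WT only had no region in any of the 7 windows, against 2.4% of all windows.

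Apart from the combined-list peak within RUNX2, the nearest NKX2-1 antibody peaks lay outside the windows. Of these, CBFA2T3 had the closest, 75.5 kb from the gene and so outside the 50 kb limit. A WT-only region there lay 75525 bp away, and a combined-list peak 75549 bp away (chromosome 16, 88799048 to 88799309, 5.16-fold, −log10 q 13.2). It was called in 0 of 4 KO libraries and in 2 of 4 WT libraries, WT10 (7.38-fold) and WT28 (7.68-fold), with Fisher's exact p = 0.429 and an adjusted p of 1 over the merged regions, a test that could not pass at this number of libraries. It overlapped an H3K27ac peak and lay 4480 bp from CDT1, a replication licensing factor gene, and 10030 bp from APRT, so that other genes were nearer to it than CBFA2T3. Among KO libraries the peak nearest to CBFA2T3 was that of S36, 339 kb away. Among peaks of single libraries CBFA2T2 had the next closest, 578 kb away in KO (S36) and in WT (WT30) libraries. For RUNX1 the nearest was 1447.5 kb away in KO libraries (S36) and 3460.8 kb away in WT libraries (WT10). For RUNX2, RUNX3, RUNX1T1 and CBFB the nearest peak in any library lay between 1001.5 and 10933.3 kb away.

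H3K27ac was called in the windows of 5 of the 7 genes, against 44.8% of all protein-coding gene windows. RUNX1 held 25 of the 31 peaks, RUNX2 held 3, CBFB, CBFA2T2 and CBFA2T3 held 1 each, and RUNX3 and RUNX1T1 held 0. A peak touched the gene body of RUNX1 and RUNX2 alone among the 7, against 21.2% of all gene bodies. The median of the 7 windows was 1 peak, beside 0 for all windows. At the promoter entries, H3K27ac overlapped that of RUNX1 and none of the other 6, against 9.22% of 22199 promoter windows of protein-coding genes. With 1 library these values carry no test.

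**Figure D1:**
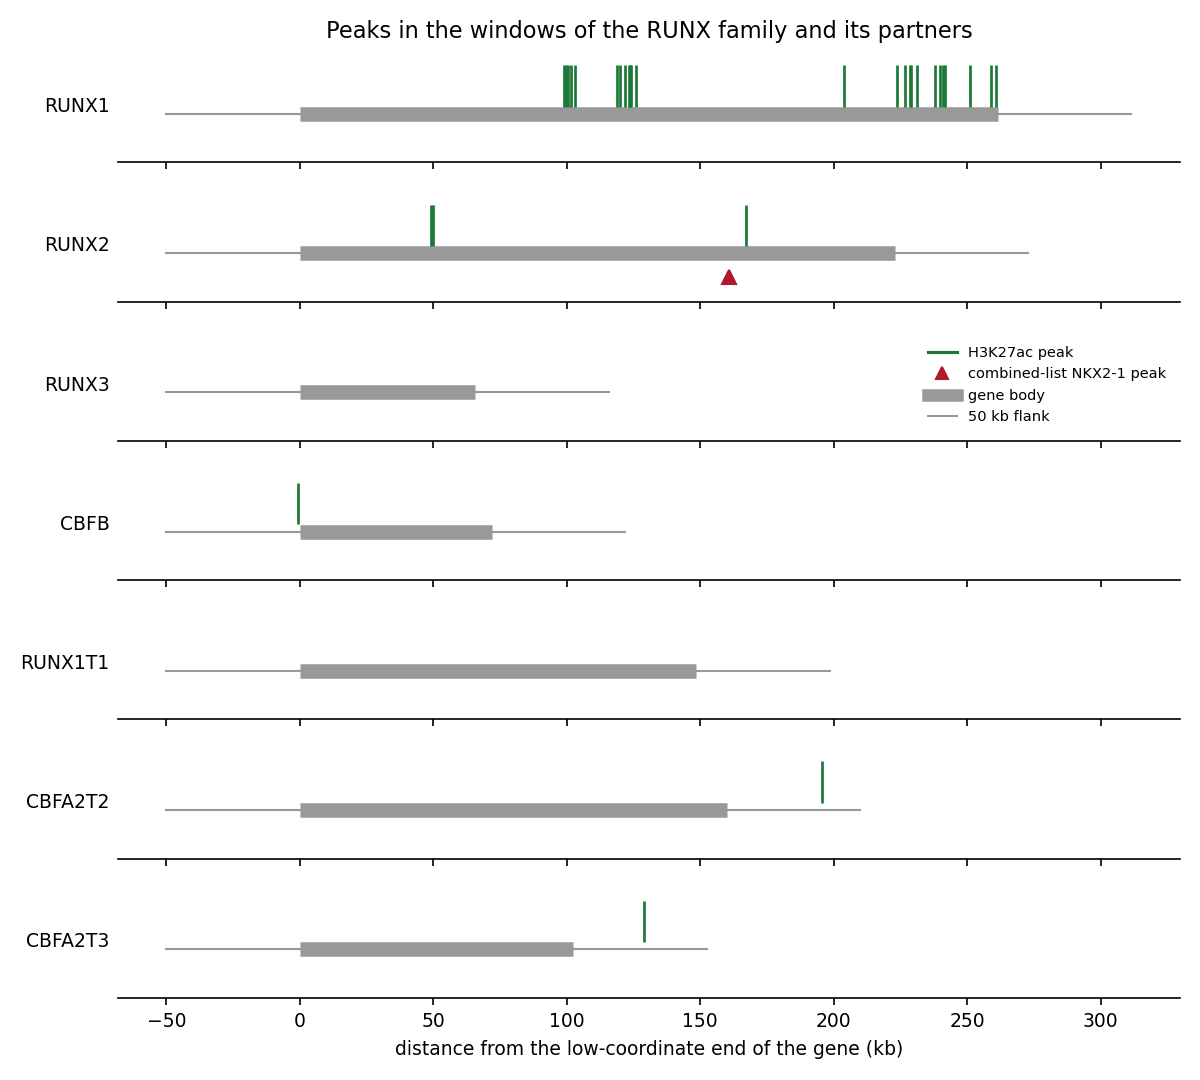
Positions of peaks in the 7 gene windows, in kb from the low-coordinate end of each gene. Green ticks are H3K27ac peaks (1 library), the red triangle is the single combined-list NKX2-1 peak, thick grey bars are gene bodies and thin lines the 50 kb flanks; RUNX1 holds 25 of the 31 H3K27ac peaks, and RUNX3 and RUNX1T1 hold none.

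RUNX1 (chromosome 21, 34787801 to 35049302, minus strand) stood high among all genes in H3K27ac. Its 25 peaks covered 16276 bp, or 4.5% of the window, at 6.92 peaks per 100 kb. Only 11 of the 20037 windows held more peaks, and 0.0699% held as many or more, counting RUNX1. That place rests on peaks of moderate strength: when only peaks whose −log10 q reached 10 were counted, RUNX1 kept 1 peak and ranked 541st, and with windows of 100 kb it ranked 30th. By covered length RUNX1 ranked 25th, and by peaks per 100 kb of window, which takes window length into account, 350th. Windows of short neighbouring genes overlap and share peaks, so several can rank above RUNX1 by density through the same peaks. Among the 847 windows of like length 0.59% held as many peaks or more, and 66% held 0. The peaks were of ordinary strength. Their deposited enrichment ran between 4.7- and 11.6-fold with a median of 6.19-fold, equal to the median of the whole list, and 12 of the 25 lay above it. Their median width of 403 bp was near the 391 bp of the list.

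**Figure D2:**
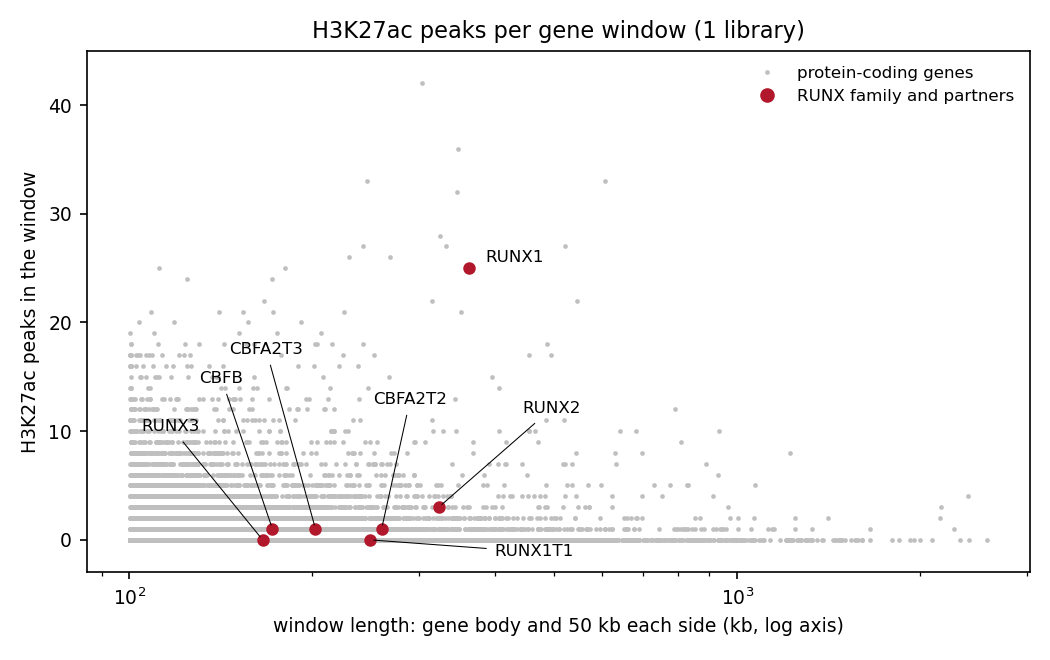
Number of H3K27ac peaks against window length (log axis) for 20037 protein-coding genes in grey and the 7 genes in red, from 1 library. RUNX1 lies near the top with 25 peaks, while the other 6 hold 0 to 3.

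The RUNX1 peaks all lay inside the gene, most of them between its distal and proximal starts. When peaks at most 12.5 kb apart were joined they formed 3 clusters and 1 lone peak. The largest cluster held 12 peaks over 37708 bp (35011301 to 35049008), ending 294 bp from the distal start. The same joining gave 5140 clusters in the library, lone peaks included, of which 1981 held 2 or more peaks. Of the 5140, 31 held more peaks than this RUNX1 cluster, and 41 (0.798%) held as many or more, itself included. The strongest peak of the RUNX1 cluster was the one nearest the distal start (35047780 to 35049008, 8.63-fold). A second group inside it lay 19.7 to 24.1 kb into the gene, with a peak of 8.39-fold (35027027 to 35027827) beside the widest of the 25 (35025207 to 35026581, 1375 bp, 7.9-fold). In mouse, a haematopoietic enhancer is known between the distal and proximal promoters of Runx1; whether it matches any of these peaks was not tested.

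The second cluster held 7 peaks over 7629 bp (34906370 to 34913998), 135 to 143 kb from the distal start. It contained the strongest RUNX1 peak, at 34908847 to 34910212 with 11.6-fold enrichment and a −log10 q of 15.5. It was the one RUNX1 peak with a −log10 q of 10 or more, a level that 12.2% of the library's peaks reached. The third cluster held 5 peaks over 5229 bp (34886217 to 34891445) around the proximal start, whose sequence is printed above. That start (34888699) fell in a gap of 261 bp between a peak of 7.41-fold ending 225 bp below it and one of 8.14-fold beginning 37 bp above it. The lone peak (34991380 to 34991663) was also the weakest, at 4.7-fold.

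Between the distal and the proximal start lay 22 of the 25 peaks, and 3 lay downstream of the proximal start, the farthest still 98416 bp from the far end of the gene. The antisense transcript RUNX1-AS1 (34836313 to 34885052) carried no peak, although the nearest began 1165 bp from it. RUNX1-IT1, a transcript within the distal part of the gene, overlapped 1 weak peak (35038874 to 35039109, 5.21-fold). LINC01426, beyond the far end of RUNX1, had none. No other protein-coding gene reached into the window, so the 25 peaks had no coding neighbour within 50 kb of RUNX1. The table gives no exons, so exonic and intronic positions were not determined.

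**Figure D3:**
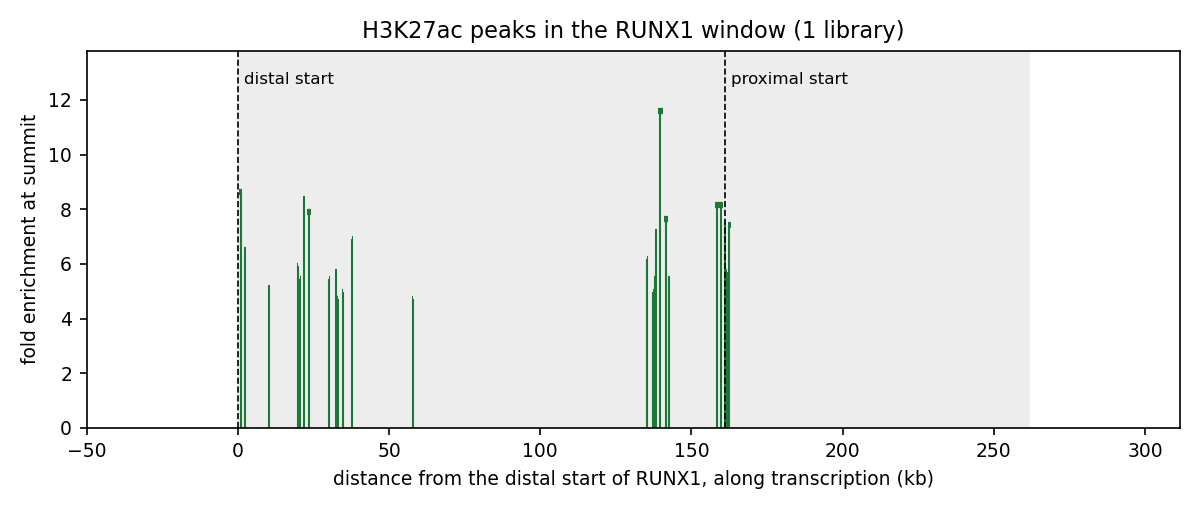
Deposited fold enrichment of each of the 25 H3K27ac peaks in the RUNX1 window against distance from the distal start along transcription (kb), with 1 vertical bar for each peak, the gene body shaded and the starts dashed. Peaks gather within 38 kb of the distal start and between 135 and 163 kb, and the strongest reaches 11.6-fold.

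By a rule of likeness (the smallest difference in number of H3K27ac peaks among the 847 genes with windows within 20% of the length of that of RUNX1), 3 genes were closest to RUNX1 in the 1 library. CDK6, a kinase gene of the G1 phase, had 27 peaks covering 23127 bp. AHI1, a ciliary protein gene, had 22 peaks covering 13610 bp, and GALNT2, a glycosyltransferase gene, had 28 covering 12476 bp. NKX2-1 antibody calls were present in 1 of the 8 libraries at CDK6, in 2 at AHI1 and in 0 at GALNT2. Of the 847 windows 8.03% had a call in any library. The call at CDK6 was that of WT10, which had a call in 2.98% of all gene windows.

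The other RUNX genes carried far fewer H3K27ac peaks. RUNX2 (chromosome 6, 45328330 to 45551082, plus strand) had 3, covering 0.524% of its window. A pair of them (45377143 to 45377518, 6.52-fold, and 45378205 to 45378421, 5.21-fold) flanked the start of SUPT3H, which encodes a subunit of the SAGA coactivator complex and overlaps RUNX2 on the opposite strand, at 416 and 271 bp. The third (45494814 to 45495910, 5.94-fold) lay 166484 bp into RUNX2 and 5642 bp from the combined-list NKX2-1 peak, without overlapping it. The distal start of RUNX2, with its 4 RUNX cores, lay 48813 bp from the nearest peak and the proximal one 43854 bp. RUNX3 (chromosome 1, 24899511 to 24965138, minus strand) had 0 peaks in its window. The nearest H3K27ac peak to its distal promoter window, with the 2 RUNX cores, lay 218995 bp away, and that to the proximal one 184261 bp away.

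CBFB (chromosome 16, 67029149 to 67101058), the shared partner of all 3 RUNX proteins, had 1 H3K27ac peak. It lay at 67028500 to 67028778, 371 bp outside the low-coordinate end of the gene, where transcription of CBFB is known to begin. At 4.95-fold and a −log10 q of 2.59 it was among the weaker peaks, with 5.63% of the library's peaks below it in enrichment.

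The corepressor genes had no H3K27ac peak in their bodies. RUNX1T1 (chromosome 8, 91954967 to 92103385) had 0 peaks. The peak counted for CBFA2T2 (chromosome 20, 33490096 to 33650030) lay at 33685407 to 33686247, 35377 bp outside the gene and 138 bp from the start of the cell cycle factor gene E2F1, at 9.05-fold. Among the 31 peaks of the family windows only the strongest RUNX1 peak was higher. The peak counted for CBFA2T3 (chromosome 16, 88874858 to 88977207) lay outside the gene at 89003373 to 89003948, 26166 bp from its annotated start, at 7.16-fold. The promoter entries of CBFA2T2 and CBFA2T3 were 123016 and 61773 bp from the nearest H3K27ac peak.

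Genes that act with the family were described from 3 lists. Of 16 RUNX and CBF cofactors 12 had an H3K27ac peak in the window (75%), with a median of 1.5 peaks; beside CDK6, a known RUNX1 interactor, KMT2A, a histone methyltransferase gene, had 5, and TLE3, a Groucho corepressor gene, and HIPK2, a kinase gene, had 4 each. Of 18 corepressors and partners of the ETO family 12 had one (66.7%, median 2). Among them were GFI1B, a haematopoietic repressor, with 8 and the deacetylase gene HDAC1 with 6. Of these peaks, 2 touched the gene body of GFI1B and 0 that of HDAC1. Of 24 known RUNX targets 11 had an H3K27ac peak in the window (45.8%, median 0). They were led by the T-cell factors LEF1 with 16 and TCF7 with 15, while CD8A, IL7R, RAG1 and PRF1 had 0. The share over all genes was 44.8%, with a median of 0, and members of these lists differ in length.

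NKX2-1 antibody calls near these genes were few. In the KO libraries, 1 of 16 cofactors, 1 of 18 ETO partners and 0 of 24 targets had a call; in the WT libraries the counts were 1, 1 and 1, against 3.39% and 3.38% of all genes. TCF7, a T-cell factor gene, had a peak 20842 bp away in WT10 (chromosome 5, 134086854 to 134087376, 6.58-fold) and in WT28 (6.96-fold), and a combined-list peak of 4.39-fold at the same place. CDK6 had 1 within the gene in WT10 (chromosome 7, 92755155 to 92755356, 3.97-fold), which overlapped an H3K27ac peak. In KO clone S36 alone, calls were made within HIPK2 (4.47-fold) and 43282 bp from HDAC1 (6.69-fold), the last only 2464 bp from the kinase gene LCK.

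**Figure D4:**
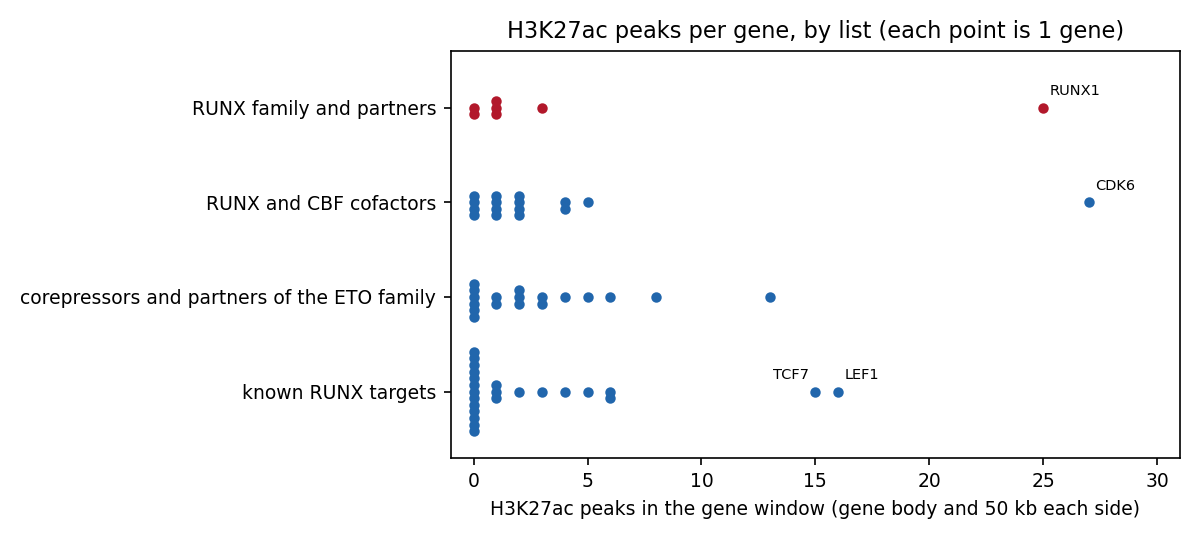
H3K27ac peaks per gene window for the 7 genes (red) and 3 lists of partner and target genes (blue), where each point is 1 gene and genes with 15 or more peaks are named. Most genes hold 0 to 8 peaks, and RUNX1 (25) and CDK6 (27) lie apart.

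At markers of the labelled cell type, 7 of 8 T-lineage windows held an H3K27ac peak, against 44.8% of all gene windows. Among them were CD3D, CD3E and CD3G with 5 each (their windows overlap) and LCK with 8, while CD2 had 0. Of the B-lineage markers 3 of 5 had one, of the myeloid markers 5 of 5, and of the lung and thyroid markers 3 of 5. Since all 5 myeloid windows held a peak, the window counts did not set the T lineage apart. A peak touched the gene itself for CD3D, CD3E, CD3G, CD247, CD5 and LCK, against 21.2% of all gene bodies. The same held for markers of other lineages, including SPI1 and TG, but for none of the 5 B-lineage markers.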

How the data were processed

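Peak lists were deposited for 9 ChIP-seq samples of RPMI-8402: 4 KO and 4 WT libraries with an NKX2-1 antibody and 1 H3K27ac library. Per the submitters' processing notes peaks rest on build hg38, and MACS2, Bowtie2, SAMtools, FastQC and deepTools were named; a version, setting or control is not given in the sources used here. Values taken from the deposited lists were each peak's fold enrichment ratio and its −log10 q, as the authors' peak caller gave them, together with the summit offset; these served to describe peaks inside one list. The libraries behind treatment and control of the combined list are not stated.

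Peaks of the assembled autosomes and sex chromosomes were assigned to the window of each protein-coding gene of the RefSeq table (GRCh38.p14), with Python 3.11.15, pandas 2.3.3, NumPy 2.4.6 and SciPy 1.17.1. Coordinates are 1-based. Counts per library were compared by a two-sided exact permutation test, where the smallest possible p is 0.0286, and calls per window and per merged region by Fisher's exact test with Benjamini-Hochberg adjustment over all features with a call. The counting and the tests were tested on simulated data. Read depth is unknown. The members, the gene lists and the search strings were chosen with earlier results of these data known. All 7 members are named, with every NKX2-1 peak in their windows and, for H3K27ac, the strongest peak and that nearest the start; genes most like RUNX1 were the 3 closest in number of peaks at like window length. Joining of peaks, the search strings, the shared run and distances to peaks outside windows were added after the data were seen. Some list and marker genes are counted but not reported by name here. Alternatives were other window sizes, a −log10 q of 10 or more, summits in place of overlap and leaving out each library.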

Additional observations from a re-analysis of the deposited data

Results flagged for a closer look

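The share of protein-coding gene windows with an NKX2-1 antibody call was 3.19% in KO clone S36, far from the other KO clones at 1.13% (C12), 0.938% (C15) and 0.843% (S04). The gap was 0.877 of the group's range, above Dixon's critical value for 4 samples. Chance alone sets apart about 1 in 20 such groups, and 4 groups were examined. Of the WT clones, WT10 had a share of 2.98%, near that of S36, and the others ran from 0.599% (WT13) to 1.44% (WT28). S36 had 0 calls in the 7 windows of the RUNX family and its partners, as did the other libraries.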

How the results depend on the processing

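The 7 windows held no NKX2-1 antibody peak in either genotype with windows of 10 kb, with gene bodies alone, at a −log10 q of 10 or more and with summits in place of overlap. Leaving out each replicate gave a difference from 0 to 0 peaks per library. With 0 peaks in all 8 libraries none of these settings could give another value, so they say nothing about stability. With windows of 100 kb the peak near CBFA2T3 entered: the KO libraries then held 0 and the WT libraries 2 peaks, a difference of -0.5 peaks per library (exact permutation p = 0.429), with 2 combined-list peaks in place of 1 and 1 WT-only region in place of 0. At a −log10 q of 10 or more the combined list had 0 peaks in the windows, since the RUNX2 peak is weak, and H3K27ac 2 in place of 31, those of RUNX1 and CBFA2T2. The WT-only list carries neither q nor summit, so those settings were not run on it. In the other settings H3K27ac gave 28 to 43 peaks, with 25 at RUNX1 in each. The rank of RUNX1 by number of peaks was 9 to 30 over these window sizes and 541 at a −log10 q of 10 or more. No paired analysis was possible because the labels give the clones no shared replicate numbers. Depth is unknown, and the single H3K27ac library has no replicate.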

Other observations

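Beyond the 50 kb flanks, windows of 100 kb added H3K27ac peaks at the 2 genes on chromosome 16 alone. CBFA2T3 then had 11 peaks in place of 1, and CBFB 3 in place of 1, while RUNX1 stayed at 25, RUNX2 at 3, CBFA2T2 at 1, and RUNX3 and RUNX1T1 at 0.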
